A study of Arabidopsis arenosa x Arabidopsis thaliana and Arabidopsis thaliana and Arabidopsis arenosa with 5 samples.

Results

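The A. thaliana gene copies carried by a newly made F1 allotetraploid of Arabidopsis were compared with the same genes in their A. thaliana parent, to find which of them changed level after the genome entered the hybrid. The members are all transcripts listed in both tables of values, 14713 transcripts of 11017 genes, of 38431 transcripts and 32313 genes in the parent's table. The other 21296 genes of the parent's table are not listed for the F1 and could not be called in either direction. Of these, 1545 had a transcript with a mean of at least 5 RPKM in the parent. Each gene was represented by its most abundant transcript, and the 9792 genes with a mean of at least 5 RPKM over the 6 columns were compared. RPKM is a read count divided by the transcript's length and by the library's mapped reads. The series holds 5 groups of tetraploids sampled as rosette leaves before bolting, and all grew with 16 h of light at 22 °C and 8 h of dark at 20 °C. The F1 is a resynthesized allotetraploid, and its plants were 6 to 7 weeks old. The A. thaliana parent is an autotetraploid of the Landsberg erecta ecotype, and its plants were 3 to 4 weeks old. The A. arenosa parent is an autotetraploid of Care-1, used here for the copies of the other species, and was 6 to 7 weeks old. An F8 allotetraploid and A. suecica, a natural allotetraploid of the same ancestry, were also 6 to 7 weeks old and gave 1 library each. Age and genotype therefore differ together in every comparison of the F1 with the A. thaliana parent, and their parts cannot be told apart.

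An allotetraploid carries complete chromosome sets of both species, so each gene is present as A. thaliana copies and as A. arenosa copies in the same nucleus. Regulatory sequence that lies beside a gene travels with its copies into the hybrid, whereas transcription factors and other diffusible regulators of both species meet all copies there. A gene whose own sequence sets its level would keep that level in the F1, and one that answers to diffusible regulators can move. The copies of a gene that descend from the parental species are called homoeologous copies, and reads are assigned to one or the other by the bases at which the species differ.

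The F1 table has a value for each species' copies of a gene. The F1 carries fewer A. thaliana copies of each gene than the autotetraploid parent, so its values, and likewise those of the A. arenosa copies, were multiplied by 2, and every F1, F8 and A. suecica value given here is the doubled one unless stated otherwise. Each difference is F1 minus A. thaliana parent on the log2(RPKM + 1) scale, which understates changes of low genes. The difference of the median gene, 0.29 in favour of the F1, was subtracted from all. The 25th and 75th percentiles of the centred differences were -0.31 and 0.29. Columns are called apart, or all above or all below, after that subtraction, so an F1 value as printed can lie slightly above a parental one and still count as below it. The columns are 3 replicates a group. The labels do not say that they came from separate plants, so p-values measure the spread between columns only. Depth is unknown, since the values are RPKM.

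The columns of a group differed among themselves. The parent's replicate 3 stood apart, with a Spearman correlation across genes of 0.725 with its replicate 1 and 0.836 with its replicate 2, against 0.928 between those. The F1 columns correlated at 0.842 to 0.918 with each other. CCA1, a clock transcription factor that peaks at dawn, had 0.311, 2.80 and 6.74 RPKM in F1 replicates 1, 2 and 3, against 0.258, 7.23 and 24.5 RPKM in A. thaliana replicates 1, 2 and 3. TOC1, its evening-phased partner, had 35.1, 25.8 and 30.9 RPKM in the F1, against 46.9, 13.9 and 7.12 RPKM in A. thaliana. In both groups CCA1 was lowest in replicate 1 and highest in replicate 3, and the part that sampling time plays in the differences below was not tested. Of the 16 root, flower and meristem markers, 0 stand in the F1 table. In the parent the 11 flower and meristem markers summed to 1.24 to 2.41 RPKM and the 5 root markers to 1.13 to 16.6 RPKM.

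The test called 19 genes higher (0.194% of those compared) and 10 genes lower (0.102%) in the F1 copies than in the parent (limma with a variance trend, Benjamini-Hochberg adjusted p below 0.05). All 29 differed by 2-fold or more, and in each the 3 columns of a group lay apart from the 3 of the other. The test picks such genes, so neither trait is further support, here or for single called genes below. The genes that rose included GATL2, GAUT15, XTH9 and the jasmonate synthesis gene LOX3. The genes that fell included a serine acetyltransferase, a molybdate transporter and a pair of cytochrome P450 genes. They also included 5 genes whose A. thaliana copies had only a near-constant low value in the F1, and their p-values rest on that value. By size alone, 421 genes (4.3%) were 2-fold or more higher and 526 genes (5.37%) 2-fold or more lower. At an unadjusted p below 0.05 there were 820 higher and 713 lower genes. With no subtraction of the median gene's difference the calls were 132 higher (1.35%) and 18 lower (0.184%). In whole leaves, fewer cells of a type and less RNA per cell cannot be told apart. The counts rest on single columns. Without A. thaliana replicate 3 the test called 192 higher (1.96%) and 142 lower (1.45%) genes, without replicate 2 of that group 0 and 2, and without its replicate 1 18 and 22. Leaving out the F1 columns gave 29 higher and 18 lower genes for replicate 1, 1 and 4 for replicate 2, and 0 and 4 for replicate 3.

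**Figure D1:**
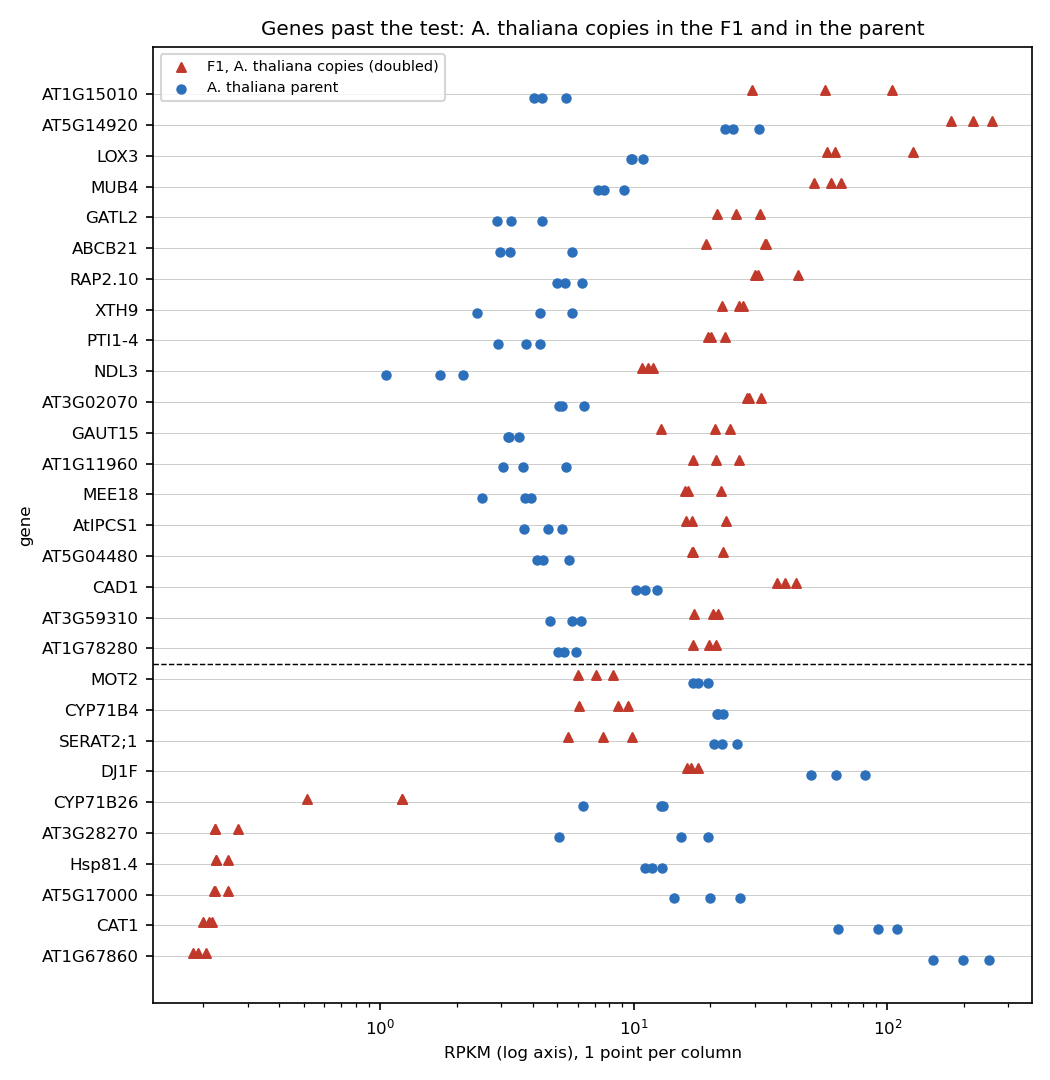
Level of the 29 genes past the test in every column, on a log axis of RPKM, with the F1 copies as triangles and the A. thaliana parent as circles; the dashed line separates the 19 higher from the 10 lower genes. The columns of the groups do not overlap in any of the genes, and the lowest 5 F1 rows lie near 0.2 RPKM in all F1 columns.

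Among the genes past the test, AT1G15010 had the largest rise; it is annotated as a mediator subunit of RNA polymerase II transcription. It had 29.3, 56.7 and 104 RPKM in F1 replicates 1, 2 and 3, against 4.05, 4.33 and 5.39 RPKM in A. thaliana replicates 1, 2 and 3, a log2 difference of 3.06 (SE 0.43, limma adjusted p = 0.0497). AT5G14920, which encodes a gibberellin-regulated family protein, had 178, 259 and 218 RPKM in the F1, against 31.1, 24.6 and 22.9 RPKM in A. thaliana. This was the most abundant of the higher genes, and its groups lay far apart in every column. Its log2 difference was 2.71 (SE 0.30, limma adjusted p = 0.0312).

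LOX3 encodes a lipoxygenase that starts jasmonate synthesis in the chloroplast. It had 62.1, 57.6 and 126 RPKM in the F1, against 10.8, 9.82 and 9.76 RPKM in A. thaliana, and its log2 difference was 2.51 (SE 0.33, limma adjusted p = 0.0427). Its parental columns lay close together and F1 replicate 3 was the high one. MUB4, a membrane-anchored ubiquitin-fold protein, had 59.8, 51.5 and 65.7 RPKM in the F1, against 7.64, 9.14 and 7.24 RPKM in A. thaliana. With a log2 difference of 2.44 (SE 0.21, limma adjusted p = 0.0105) it had the lowest adjusted p of the higher genes, and neither group had a column that stood apart.

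GATL2, XTH9 and GAUT15 encode enzymes of cell wall polysaccharides; they were put together after the calls were seen, and no list of cell wall genes was counted. GATL2 belongs to a family of galacturonosyltransferase-like proteins of pectin synthesis, and had 21.3, 25.3 and 31.4 RPKM in the F1, against 2.89, 4.34 and 3.28 RPKM in A. thaliana (log2 difference 2.28, SE 0.22, limma adjusted p = 0.0166). XTH9, a xyloglucan endotransglucosylase, which cuts and rejoins the xyloglucan chains of the wall, had 25.9, 27.1 and 22.3 RPKM in the F1, against 4.28, 2.41 and 5.70 RPKM in A. thaliana (log2 difference 2.1, SE 0.27, limma adjusted p = 0.0427). GAUT15, a galacturonosyltransferase, had 12.8, 24 and 20.9 RPKM in the F1, against 3.53, 3.22 and 3.20 RPKM in A. thaliana (log2 difference 1.89, limma adjusted p = 0.0427). GAUT15 and the other genes outside the rule for named genes were chosen after their values were seen. In all 3 genes every F1 column was above every parental one.

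The other higher genes had varied roles. ABCB21, an ABC transporter that carries auxin, had 19.3, 33.3 and 32.8 RPKM in the F1, against 2.97, 5.71 and 3.26 RPKM in A. thaliana (log2 difference 2.27, limma adjusted p = 0.0427). RAP2.10, a DREB-type transcription factor, had 30.0, 44.4 and 30.8 RPKM in the F1, against 6.24, 5.36 and 4.98 RPKM in A. thaliana (log2 difference 2.15, limma adjusted p = 0.0190). PTI1-4, a protein kinase, had 22.9, 19.7 and 20.2 RPKM in the F1, against 3.76, 2.91 and 4.26 RPKM in A. thaliana (log2 difference 1.95, limma adjusted p = 0.0166). The groups of these 3 genes did not overlap. AT3G02070, a member of the cysteine proteinase superfamily, differed by 1.93 on the log2 scale (limma adjusted p = 0.0158) and AT1G11960, an ERD family protein, by 1.87 (limma adjusted p = 0.0427). CAD1, a perforin-domain protein that holds back cell death, had 43.7, 36.8 and 39.3 RPKM in the F1, against 10.2, 12.4 and 11.0 RPKM in A. thaliana (log2 difference 1.45, limma adjusted p = 0.0460). The remaining higher genes were NDL3, MEE18, AtIPCS1 (an enzyme of sphingolipid synthesis), AT5G04480, AT3G59310 and AT1G78280, with log2 differences between 1.37 and 1.95.

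DJ1F, SERAT2;1, MOT2 and CYP71B4 fell and had A. thaliana copies above 0.3 RPKM before doubling in every F1 column. DJ1F, of the DJ-1 family, had 16.2, 17.9 and 16.9 RPKM in the F1, against 62.6, 50.1 and 81.3 RPKM in A. thaliana (log2 difference -2.13, SE 0.25, limma adjusted p = 0.0385). SERAT2;1, a plastid serine acetyltransferase of cysteine synthesis, had 7.59, 5.48 and 9.83 RPKM in the F1, against 20.7, 25.5 and 22.3 RPKM in A. thaliana (log2 difference -1.79, SE 0.24, limma adjusted p = 0.0427). MOT2, a molybdate transporter, had 7.10, 6.04 and 8.28 RPKM in the F1, against 18, 17.2 and 19.6 RPKM in A. thaliana (log2 difference -1.54, SE 0.19, limma adjusted p = 0.0385). The parental columns of SERAT2;1 and MOT2 varied little, and their F1 columns were all below 10 RPKM.

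CYP71B4 and CYP71B26 are cytochrome P450 genes of the CYP71B subfamily, which stand in one row of related genes on chromosome 3. CYP71B4 had 8.64, 6.07 and 9.49 RPKM in the F1, against 22.5, 21.3 and 21.5 RPKM in A. thaliana (log2 difference -1.64, SE 0.21, limma adjusted p = 0.0427). CYP71B26 had 1.22, 0.514 and 1.22 RPKM in the F1, against 6.32, 12.8 and 13.1 RPKM in A. thaliana (limma adjusted p = 0.0385). Its F1 replicate 2 lies in the band of low values described next, so no fold is given, and with genes of that band left out it is not tested. The row was looked at because these genes passed, and it is no list of its own. Of its 6 genes that were compared, 2 passed as lower, which is how the row was chosen, so that count says nothing more about it. All 6 had differences below 0, the 2 that led to the row included. After centring, as many of all genes lie below 0 as above. CYP71B20, at -1.54, had no overlap between its columns (limma adjusted p = 0.0850), whereas CYP71B19 at -0.97, CYP71B23 at -1.04 and CYP71B34 at -0.20 had overlapping columns. The members are related in sequence, and reads may have been divided between them.

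The lower end of the F1 values was not a plain read-out of expression. In F1 replicate 3, 341 transcripts shared the same pair of undoubled values, 0.126 RPKM for the A. thaliana and 0.0745 RPKM for the A. arenosa copies. A band of undoubled A. thaliana values below 0.3 RPKM held 385, 293 and 433 transcripts in F1 replicates 1, 2 and 3, while only 13, 17 and 50 lay at 0.3 to 0.6 RPKM. In the parent, 18, 4 and 6 of the same transcripts lay below 0.3 RPKM. In 352, 250 and 341 transcripts of the F1 both species' copies were in the band in the same column. How these values arose is stated in no label or header used here, and a value in the band is read here as a listed low value. No fold between the F1 and the A. thaliana parent is given for a gene with such an A. thaliana value, and differences of response that rest on one are marked. Of the genes compared, 122 had an F1 value of either species' copies in the band, and without them the test called 15 higher (0.155%) and 5 lower (0.0517%) genes.

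**Figure D2:**
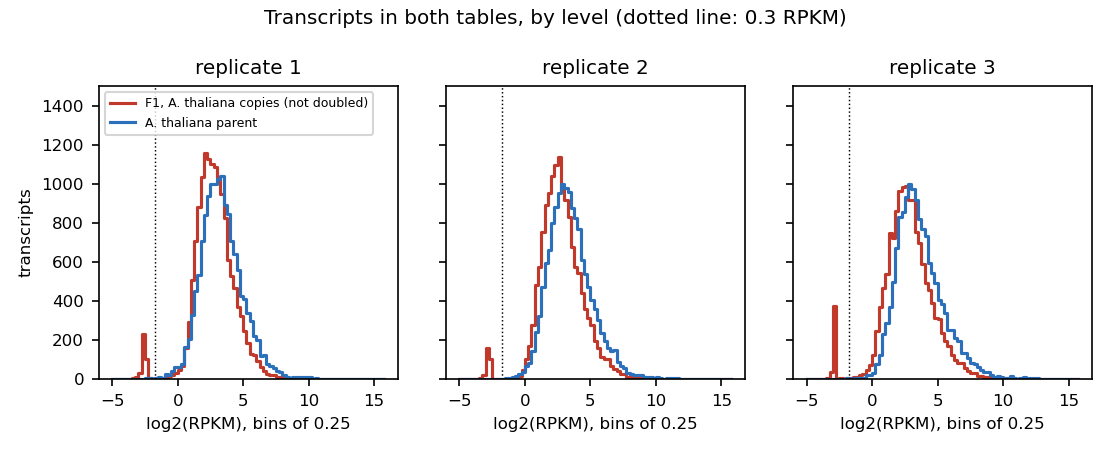
Number of transcripts (14713 in both tables) by level in bins of 0.25 on the log2 RPKM scale, for F1 A. thaliana copies before doubling and for the A. thaliana parent, in 1 panel per replicate. The F1 has a separate peak left of the dotted line at 0.3 RPKM, holding 385, 293 and 433 transcripts in replicates 1, 2 and 3, where the parent has 18, 4 and 6.

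For 15 genes the A. thaliana copies were in that band in all 3 F1 columns while the A. arenosa copies were above it in all 3. In the F8 table, 14 of the 15 were listed at 0, where 137 of all 14334 transcripts were, and in A. suecica 10 of the 15 were, where 221 of all 14233 transcripts were. The 15 are counted as genes, at 0 in every transcript, and were chosen for A. arenosa copies above the band. The counts over all transcripts were not so chosen, so the shares are not like for like. Of these genes, 7 reached the filter's mean of 5 RPKM over the columns of both groups and were compared. AT3G15460, AT4G25320, AT5G19875, AT3G04230 and CYP71B11 had parental means of 5.16 to 9.20 RPKM. They were left out because their low F1 values brought the mean over both groups below the filter. Of the 7 genes compared, 5 passed the test as lower. The genes that passed are CAT1, AT1G67860, AT5G17000, Hsp81.4 and AT3G28270, chosen after their values were seen. These 5 passed the filter only through the parent's columns, and their p-values rest on near-constant low values in the F1. The calls therefore show only that the parental columns lay above the band, and their p-values are no measure of the strength of a fall. MT1C, a metallothionein (limma adjusted p = 0.0597), and AT3G57020 (limma adjusted p = 0.0597) did not pass.

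CAT1 encodes a catalase, one of the enzymes that break down hydrogen peroxide. Its A. thaliana copies had 0.218, 0.200 and 0.212 RPKM in F1 replicates 1, 2 and 3, all in the band, against 91.8, 109 and 63.6 RPKM in A. thaliana (limma adjusted p = 5.15e-05). Its A. arenosa copies had 222, 255 and 207 RPKM in the F1, against 166, 192 and 135 RPKM in the A. arenosa parent. The A. thaliana copies of CAT1 were listed at 0 in F8 and in A. suecica, and in the low band in every F1 column. The gene lies at chr1:7146636-7150180 on the plus strand of TAIR10.1. Whether its reads could be taken for those of a relative depends on how far the coding sequences differ. CAT2, its closest relative of those compared by sequence, is 80.3% identical over 1479 aligned coding bases. In the most similar stretch of 83 bases, the longest read length, CAT1 and CAT2 of A. thaliana differ at 7 positions. The stretch covers coding bases 379 to 461 of both, here in RefSeq's TAIR10.1 sequence on the coding strand, with the differing bases in capitals:
CAT1: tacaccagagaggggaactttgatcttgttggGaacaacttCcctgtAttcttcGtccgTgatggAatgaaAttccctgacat
CAT2: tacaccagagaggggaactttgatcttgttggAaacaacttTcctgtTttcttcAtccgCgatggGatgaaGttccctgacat
No stretch of that length has 2 or fewer differences. CAT2 itself had 19.3, 67.5 and 231 RPKM in the F1, against 22.4, 132 and 768 RPKM in A. thaliana (log2 difference -1.26, limma adjusted p = 0.713), with overlapping columns.

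AT1G67860, of unknown function, was the most abundant of these genes in the parent. Its A. thaliana copies had 0.205, 0.183 and 0.192 RPKM in the F1, against 199, 253 and 152 RPKM in A. thaliana (limma adjusted p = 2.51e-05). Its A. arenosa copies had 460, 939 and 915 RPKM in the F1, against 897, 750 and 385 RPKM in the A. arenosa parent. The A. thaliana copies were listed at 0 in F8 but had 52.7 RPKM in A. suecica. AT3G28270, of a family of putative membrane proteins, had 0.275, 0.222 and 0.224 RPKM in the F1, against 5.09, 15.3 and 19.6 RPKM in A. thaliana (limma adjusted p = 0.0409). Its A. thaliana copies were at 0 in F8 and at 14.6 RPKM in A. suecica, so for both genes A. suecica had a level where F8 was at 0 and the F1 in the low band.

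Hsp81.4 and AT5G17000 have close relatives, and their values are uncertain for that reason. AT1G67860 and AT3G28270 were not compared with relatives by sequence, so the same doubt was not examined for them. Hsp81.4, a cytosolic HSP90 chaperone at chr5:22677338-22680152 on the minus strand, had 0.251, 0.224 and 0.226 RPKM in the F1, against 12.9, 11.8 and 11.0 RPKM in A. thaliana (limma adjusted p = 0.00102). Its coding sequence is 95.4% identical to that of HSP81-3, and 33.8% of its stretches of 83 bases differ from HSP81-3 at 2 positions or fewer. A stretch that the genes share without any difference is shown, at coding bases 524 to 606 of both (TAIR10.1, coding strand):
Hsp81.4: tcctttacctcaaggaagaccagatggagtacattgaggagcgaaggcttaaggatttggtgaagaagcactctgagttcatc
A read from it carries no base that tells Hsp81.4 from HSP81-3. HSP81-3 had 28.5, 28.2 and 0.213 RPKM in the F1, against 81.2, 60.8 and 72.3 RPKM in A. thaliana, so F1 replicate 3 alone was in the band (limma adjusted p = 0.254). AT5G17000, a zinc-binding dehydrogenase at chr5:5584708-5587237 on the minus strand, had 0.251, 0.220 and 0.223 RPKM in the F1, against 14.5, 19.9 and 26.3 RPKM in A. thaliana (limma adjusted p = 0.00102). It is 93.1% identical to AER, an alkenal reductase, and the pair share this stretch at coding bases 409 to 491:
AT5G17000: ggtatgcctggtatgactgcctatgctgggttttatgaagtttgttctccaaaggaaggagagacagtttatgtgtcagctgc
AER had 26.9, 32.3 and 39.8 RPKM in the F1, against 40.8, 40.6 and 58.8 RPKM in A. thaliana (log2 difference -0.78, limma adjusted p = 0.235). A. thaliana copies of both Hsp81.4 and AT5G17000 were at 0 in F8 and A. suecica.

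The A. arenosa copies of the same genes often differed from their own parent in the same direction. Of the 19 genes that rose, 18 had A. arenosa copies with a difference above 0, the exception being MEE18, and all 5 genes that fell without being in the low band in every F1 column had A. arenosa copies with a difference below 0. The A. arenosa differences were centred on their own median gene, so as many of all genes compared lie above 0 as below. In 0 of the 19 genes that rose did the A. arenosa copies pass their own test against the A. arenosa parent. Both sets of copies were measured in the same F1 libraries, and these counts carry no test. The response of the A. thaliana copies was then set against that of the A. arenosa copies, each relative to its own parent. The responses differed in 12 genes (limma interaction, adjusted p below 0.05), with 3 genes (0.0306% of those compared) higher and 9 (0.0919%) lower in the A. thaliana response. The fit allowed a spread for the F1 ratios and another that both parents shared. At an unadjusted p below 0.05 there were 1176. Of the 12 genes, 4 were the CAT1, AT1G67860, AT5G17000 and Hsp81.4 described above, whose A. thaliana copies are in the low band. The count was 2 with genes of the low band left out, 19 without replicate 1, 2 without replicate 2 and 16 without replicate 3 of every group. Only CAT1 and AT1G67860, both in the low band, kept the call in every alternative that tested them. The other 10 genes, among them all those described next, lost it in at least 1 alternative. Set against the A. arenosa parent alone, 4 genes (0.0408%) had A. arenosa copies that were higher and 3 (0.0306%) lower in the F1 by the same test. All genes named for this difference were chosen after their values were seen.

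TCH3, a calmodulin-like protein whose gene is induced by touch, showed the widest gap in favour of the A. thaliana copies. These had 457, 293 and 480 RPKM in the F1, against 133, 105 and 62.8 RPKM in A. thaliana. Its A. arenosa copies had 0.815, 0.448 and 9.44 RPKM in the F1, against 22.8, 36.2 and 33.0 RPKM in A. arenosa. The A. thaliana copies were thus above all parental columns and the A. arenosa copies below all of theirs, with a response difference of 5.18 (SE 0.77, adjusted p = 0.0393), but F1 replicate 2 of the A. arenosa copies was in the band, so the size of this value rests on it. MEE18, a gene named for maternal-effect embryo arrest, had 15.9, 22.1 and 16.4 RPKM for the A. thaliana copies in the F1, against 3.93, 2.52 and 3.73 RPKM in A. thaliana. Its A. arenosa copies had 3.73, 7.51 and 3.67 RPKM in the F1, against 4.16, 5.83 and 4.83 RPKM in A. arenosa, and their columns overlapped (response difference 1.93, SE 0.28, adjusted p = 0.0382). AT1G27030, of unknown function, had 14.1, 34.7 and 46.8 RPKM for the A. thaliana copies in the F1, against 2.13, 2.53 and 8.33 RPKM in A. thaliana (response difference 2.94, adjusted p = 0.0495).

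The genes with the opposite pattern included AT1G67870, a glycine-rich protein gene. Its A. thaliana copies had 108, 232 and 255 RPKM in the F1, against 445, 508 and 744 RPKM in A. thaliana, while its A. arenosa copies had 328, 578 and 639 RPKM in the F1, against 255, 288 and 222 RPKM in A. arenosa (response difference -2.76, SE 0.40, adjusted p = 0.0382). The columns lay apart in both comparisons, in opposite directions. ZF2, a zinc-finger protein, showed its change mainly in the A. arenosa copies. These had 9.03, 9.88 and 16.6 RPKM in the F1, against 2.04, 2.88 and 2.78 RPKM in A. arenosa, whereas the A. thaliana copies had 9.67, 9.21 and 16.1 RPKM in the F1, against 25.6, 17.3 and 12.3 RPKM in A. thaliana (response difference -2.64, adjusted p = 0.0164). Within the F1 the copies of ZF2 had nearly the same level in each column. BGAL4, a beta-galactosidase, ADT6, an arogenate dehydratase of phenylalanine synthesis, and AT5G14430, a methyltransferase family member, differed by -2.86, -2.03 and -1.96.

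**Figure D3:**
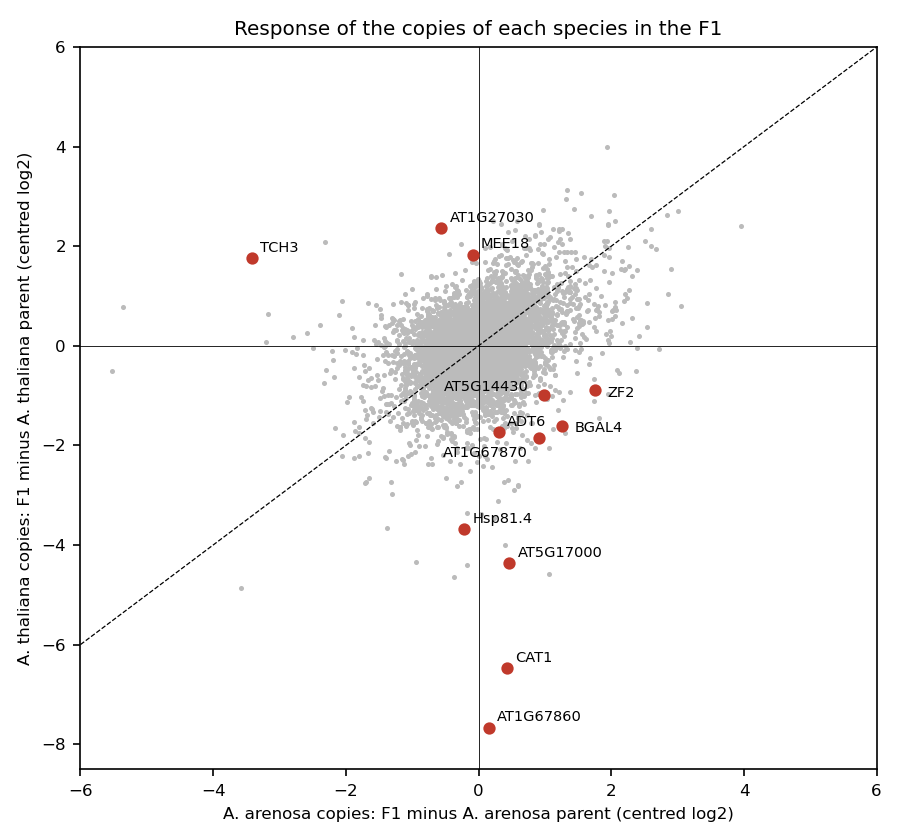
Centred log2 difference between the F1 and the A. thaliana parent for the A. thaliana copies (vertical) against that between the F1 and the A. arenosa parent for the A. arenosa copies (horizontal), 1 point per gene for 9792 genes, with the 12 genes of different response in red and the diagonal dashed. TCH3, AT1G27030 and MEE18 lie above the diagonal and the other 9 below it, with CAT1 and AT1G67860, both at low-band values in the F1, lowest.

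Named pathways were read from 28 lists, of which 25 had a compared member, 320 genes in all. LOX3 was the 1 member past the test over all genes. By size, 15 members were 2-fold or more higher and 72 lower, and 37 of those 72 belong to the photosystem list. Below, a list is described by its median difference, where the median over all 9792 genes is 0 after centring, and by how many members had all F1 columns above or below all parental columns, which was so for 11.1% and 10.1% of all genes compared. Counts of members at an unadjusted limma p below 0.05 stand beside 820 higher and 713 lower of all 9792 genes. JAZ, MYB and other members beyond the highest and lowest of a list were named after their values were seen.

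Jasmonate genes included the list member past the test, and several others lay high. The hormone is made from linolenic acid by lipoxygenases, AOS, AOC and OPR3, and its JAZ repressors are themselves induced by it. Of 19 members compared, 1 rose (LOX3), 0 fell, and 6 were 2-fold or more higher by size. At an unadjusted p below 0.05, 7 were higher and 1 lower. The median was 0.61, and 7 members had all F1 columns above the parent, against 2 with all below. The median was 0.15 without F1 replicate 3, 1.05 without F1 replicate 1 and 0.35 with genes of the low band left out. Beside LOX3, its close relative LOX4 had 102, 39.2 and 99.0 RPKM in the F1, against 10.9, 10.4 and 9.55 RPKM in A. thaliana (log2 difference 2.43, limma adjusted p = 0.0597). OPR3, which makes the jasmonate precursor OPC-8:0, had 118, 113 and 215 RPKM in the F1, against 43.8, 24.9 and 15.1 RPKM in A. thaliana (2.14, limma adjusted p = 0.105). Among the repressors, JAZ5 had 22.5, 33.8 and 85.3 RPKM in the F1, against 10.5, 5.8 and 5.17 RPKM in A. thaliana (2.1, limma adjusted p = 0.118). JAZ1, JAZ2 and JAZ6 had differences of 1.51, 1.14 and 0.99 with columns apart. The lowest members were AOC2, with 111, 51.3 and 131 RPKM in the F1 against 177, 168 and 161 RPKM in A. thaliana (-1.18), and LOX2 at -0.45 with overlapping columns. The receptor gene COI1 was at -0.25. The A. arenosa copies of the same list had a median of 0.87.

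Glucosinolates are the sulfur-rich defence compounds of the cabbage family, and their genes lay on the low side as a group. Of 29 members compared by limma, 0 rose and 0 fell over all genes, 13 were lower and 0 higher at an unadjusted p below 0.05, and the median was -0.79, or -0.50 with no centring. All F1 columns were below all parental columns in 15 members and above them in 0. SOT18, a sulfotransferase of the last core step, had 23.0, 24.7 and 21.4 RPKM in the F1, against 59.8, 46.5 and 58.6 RPKM in A. thaliana (log2 difference -1.51, SE 0.23, limma adjusted p = 0.0595). CYP79B2, which starts indole glucosinolate synthesis from tryptophan, was lowest at -1.63 with 37.9, 10.5 and 12.9 RPKM in the F1, against 54.7, 57.8 and 29.4 RPKM in A. thaliana. Its columns overlapped through F1 replicate 1. The regulator MYB28 was at -0.54. The members above 0 were NSP1 at 0.49, MYB51 at 0.38, PEN2 at 0.37 and ESP at 0.25, of which NSP1, PEN2 and ESP act on finished glucosinolates and MYB51 is a regulator of the indole branch. The A. arenosa copies had a median of -0.28.

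Photosystem and light-harvesting genes had the lowest median of the lists with more than 4 members. Of 48 compared by limma, 0 rose and 0 fell, 3 were lower and 0 higher at an unadjusted p below 0.05, the median was -1.19, and 47 differences were below 0. The median was -0.17 under quantile normalization, with 6 rather than 37 members 2-fold or more lower by size. It was -0.63 without F1 replicate 1, -1.81 without A. thaliana replicate 1 and -0.77 without replicate 3 of the parent. The spread between columns was wide. The median log2 level of the list was 7.98, 9.55 and 10.43 in F1 replicates 1, 2 and 3, against 9.09, 10.78 and 11.82 in A. thaliana replicates 1, 2 and 3. Replicate 1 was thus lowest and replicate 3 highest in both groups, and the groups overlapped. Between columns of the same number, the F1 median was the lower one each time. With same-numbered columns fitted as a replicate block, 2 members passed the test as lower, but no label says that the numbers mark pairs. LHB1B2, a light-harvesting protein of photosystem II, had 134, 810 and 691 RPKM in the F1, against 2909, 9038 and 13022 RPKM in A. thaliana (log2 difference -4.34, SE 1.03, limma adjusted p = 0.123). It was one of 5 members whose columns lay apart, with PSAH-1, PSBR, LHB1B1 and PSAO. PSAH-1, a photosystem I subunit, had 241 and 350 RPKM in F1 replicates 1 and 2 and a value in the low band in replicate 3, so no fold is given for it. PSBR was at -2.65. FNR2 and LHCB4.3 were the highest, at -0.16 and 0.09. LHCB1 genes are near-identical copies whose reads the counting may have split. Calvin cycle genes had a median of -0.75 (18 compared), but 0.06 under quantile normalization, -0.06 without A. thaliana replicate 3, -1.27 without its replicate 1 and -0.30 without F1 replicate 1. Chlorophyll synthesis genes had a median of -0.37 (16), or 0.04 without A. thaliana replicate 3, and starch synthesis genes of -0.26 (15), or 0.04 with no centring. Starch degradation genes had a median of 0.16 (13).

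Median differences were lower in classes of more abundant genes. The median difference was 0.07 for the 2830 genes at 5 to 10 RPKM, -0.19 for the 855 at 50 to 100 RPKM, -0.39 for the 149 at 200 to 500 RPKM and -1.26 for the 41 at 1000 RPKM or more. Of those 41, the 7 outside the photosynthesis lists had a median of -1.05. The A. arenosa copies had a median of 0.05 in the lowest and -0.69 in the highest of these classes. Before the 0.29 was subtracted, the medians of the classes up to 200 RPKM were above 0. All F1 columns were below the parent for 8.16% of the genes at 5 to 10 RPKM and 14.0% at 50 to 100 RPKM. The share was 9.4% at 200 to 500 RPKM and 17.1% at 1000 RPKM or more, against 10.1% of all genes. By chromosome the medians lay between -0.03 and 0.02.

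**Figure D4:**
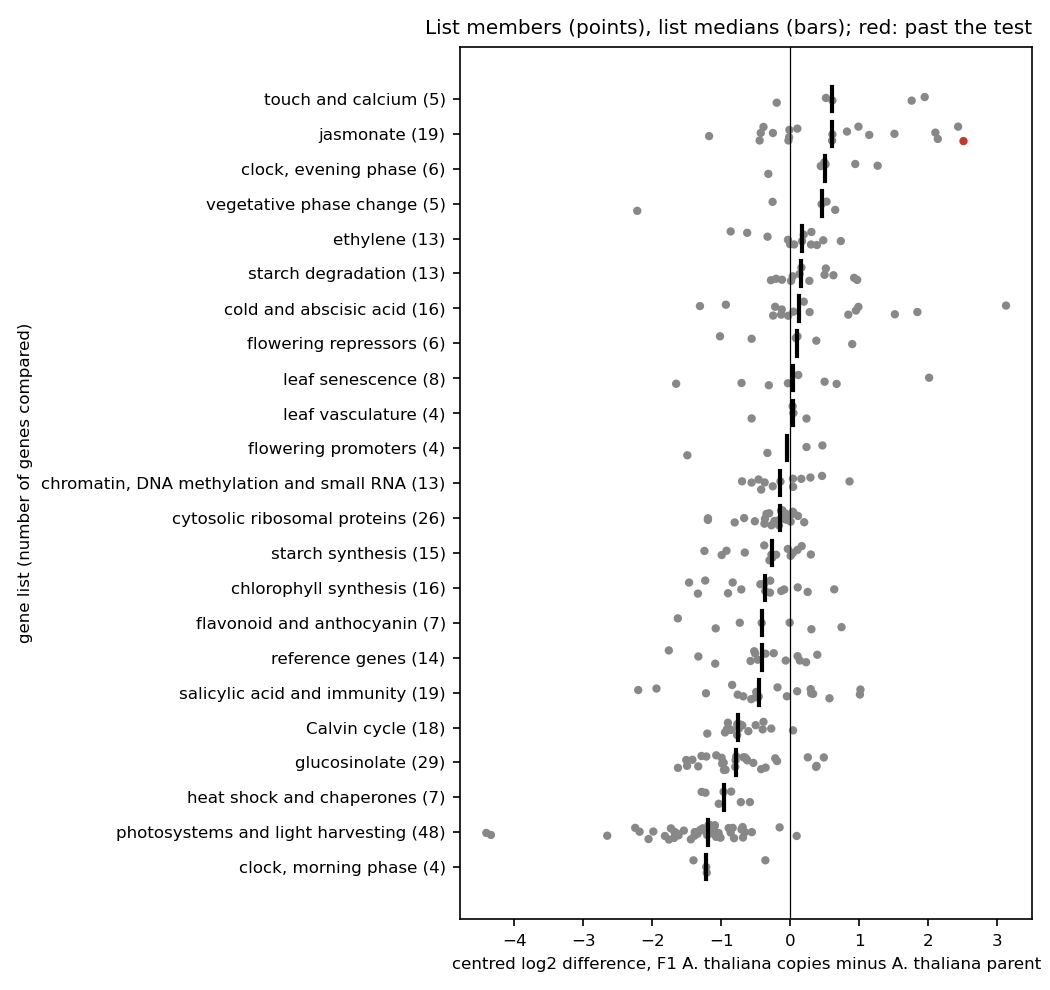
Centred log2 difference between F1 copies and the A. thaliana parent for the members of each list with at least 4 genes compared, 1 point per gene, with the list median as a bar and LOX3, past the test, in red. PSAH-1 and CCA1, with 1 F1 value in the low band each, are included. The medians run from 0.61 (jasmonate and touch) to -1.19 (photosystems) and -1.22 (morning clock genes).

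Heat shock and chaperone genes had differences below 0 in all 7 members compared by limma, with a median of -0.97, and 4 had all F1 columns below the parent. By limma 0 passed the test over all genes and 5 were lower at an unadjusted p below 0.05. HSC70-1, the main cytosolic HSP70, had 138, 175 and 223 RPKM in the F1, against 318, 337 and 355 RPKM in A. thaliana (log2 difference -1.23, limma adjusted p = 0.204). MBF1C, a coactivator of the heat response, was at -1.29, HSC70-3 at -0.72 and HSP70 at -0.59. The A. arenosa copies of these genes had a median of -0.13.

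The clock lists varied widely between columns. The 4 morning genes had a median of -1.22 and the 6 evening genes of 0.50, and by limma 0 passed, while 1 morning gene was lower and 1 evening gene higher at an unadjusted p below 0.05. LNK2, a morning coactivator, was lowest at -1.40, followed by LNK1 at -1.21 and PRR7 at -0.36. No difference is given for CCA1, the 1 other member, since its F1 replicate 1 is in the low band. LUX, of the evening complex, was highest at 1.27 with 25.1, 39.2 and 28.6 RPKM in the F1, against 23.7, 5.12 and 7.01 RPKM in A. thaliana, followed by PRR5 at 0.94, TOC1 at 0.51, GI at 0.49 and ELF3 at 0.44, and ZTL was at -0.32. With A. thaliana replicate 1 left out, the morning median was -2.02 and the evening median 1.03, and with replicate 3 of that group left out the morning median was -0.35 and the evening median 0.27.

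**Figure D5:**
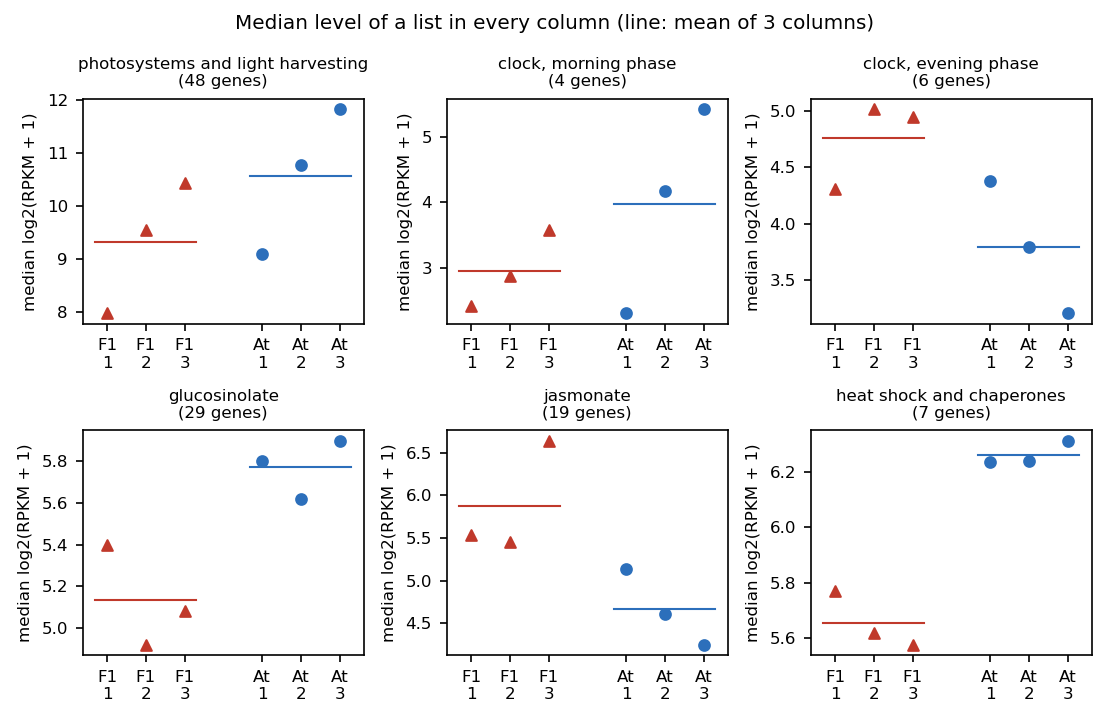
Median log2(RPKM + 1) of 6 lists in F1 replicates 1 to 3 (triangles) and A. thaliana replicates 1 to 3 (circles), with the mean of each group as a line. In the photosystem and morning clock lists the columns of a group differ by more than the group means, whereas for the glucosinolate, jasmonate and heat shock lists all F1 columns lie on one side of all parental columns.

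Genes of flowering and phase change had differences of both signs, and 0 passed the test over all genes. The parts of age and genotype cannot be told apart in them. FLC, the main repressor of flowering, is not listed in the F1 table, and its transcript AT5G10140.1 had 0.611, 0.572 and 0.406 RPKM in A. thaliana. FLM, another repressor, had 16.0, 24.9 and 22.9 RPKM in the F1, against 8.92, 9.73 and 7.28 RPKM in A. thaliana (log2 difference 0.90, limma adjusted p = 0.144). SVP, its partner, had 17.8, 14.4 and 23.2 RPKM in the F1, against 28.2, 28.1 and 36.4 RPKM in A. thaliana (-1.02, limma adjusted p = 0.131). The columns of both lay apart, in opposite directions. SOC1, a promoter of flowering, had 8.02, 21.5 and 43.7 RPKM in the F1, against 33.6, 72.4 and 42.1 RPKM in A. thaliana (-1.49, limma adjusted p = 0.279). SNZ, an AP2-type repressor of flowering, had 2.96, 3.65 and 2.80 RPKM in the F1, against 7.84, 14.5 and 27.0 RPKM in A. thaliana (-2.22, SE 0.40, limma adjusted p = 0.0712). SPL5 and AP2 were the highest of the phase change list at 0.65 and 0.53. Of the senescence list, 8 members had a median of 0.04, or -0.32 without A. thaliana replicate 3, from SAG13 at -1.66 and NYC1 at -0.71 to WRKY53 at 0.67 and DIN10 at 2.01.

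Other stress lists held differences of both signs. ERD5, the proline dehydrogenase gene, was the highest of all list members at 3.13 with 10.8, 237 and 110 RPKM in the F1, against 7.86, 5.68 and 3.28 RPKM in A. thaliana (SE 1.00, limma adjusted p = 0.200). ERD10, a dehydrin, was at 1.84, and RAB18 at -1.31 and RD26 at -0.93 were the lowest of the cold and abscisic acid list, whose median was 0.12 over 16 genes, or -0.15 without F1 replicate 3. TCH4, a touch-induced xyloglucan endotransglucosylase, had 121, 220 and 241 RPKM in the F1, against 33.9, 22.9 and 73.3 RPKM in A. thaliana (1.95, limma adjusted p = 0.146). TCH3 (1.76, limma adjusted p = 0.145) and CAM2 (0.61) were the other touch genes with columns apart, and CAM1 was lowest at -0.20. WRKY70, a regulator of salicylic acid response, had 83.3, 30.7 and 37.3 RPKM in the F1, against 272, 254 and 77.1 RPKM in A. thaliana (-2.21, limma adjusted p = 0.158), and NIMIN1 was at -1.94. WRKY40 at 1.01 and WRKY18 at 1.02 were the highest of that list, whose median was -0.46 over 19 genes. That median was 0.35 without F1 replicate 2, and leaving out A. thaliana replicate 1, 2 or 3 gave 0.02, 0.08 or -1.08. Without A. thaliana replicate 3, WRKY70, TCH4, LOX4, SNZ, SOT17 and SOT18 were among the 10 list members past the test.

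The direction of several other lists depended on the scaling. Cytosolic ribosomal protein genes had a median of -0.15 (26 compared), or 0.14 with no centring and 0.10 under quantile normalization. Chromatin and small RNA genes had a median of -0.14 (13), or 0.15 with no centring, and ethylene genes of 0.17 (13), or -0.10 without A. thaliana replicate 3. Reference genes had a median of -0.42 (14), or -0.12 with no centring. The reference genes ran from GAPC2 at -1.76 and GAPC1 at -1.33 to ACT8 at 0.23 and PTB1 at 0.39. ROS1, a DNA demethylase, had 8.55, 10.7 and 12.3 RPKM in the F1, against 3.00, 4.75 and 4.90 RPKM in A. thaliana (0.86, limma adjusted p = 0.160), and was the highest of the chromatin list. Leaf vasculature markers, 5 of 5 listed in both tables, summed to 124 to 207 RPKM in the F1, against 138 to 232 RPKM in A. thaliana. The 3 epidermal markers listed in both summed to 161 to 521 RPKM in the F1, against 53.6 to 1896 RPKM in A. thaliana, with LTP1 highest in replicate 3 of both groups. The 2 guard cell markers summed to 12.6 to 16.2 RPKM in the F1, against 13.3 to 13.9 RPKM in A. thaliana.

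F8 and A. suecica give single values for the A. thaliana copies, here for the 5 largest rises and the 3 falls that met the rule for named genes, beside the same parental columns. AT1G15010 had 23.0 RPKM in F8, with 4.05 to 5.39 RPKM in A. thaliana, and has no value for A. suecica here. AT5G14920 had 144 RPKM in F8 and 41.9 RPKM in A. suecica, with 22.9 to 31.1 RPKM in A. thaliana. LOX3 had 62.4 RPKM in F8 and 7.42 RPKM in A. suecica, with 9.76 to 10.8 RPKM in A. thaliana. LOX3 was thus above the parental columns in F8. MUB4 had 33.0 RPKM in F8 and 16.7 RPKM in A. suecica, with 7.24 to 9.14 RPKM in A. thaliana. GATL2 had 10.3 RPKM in F8 and 37.9 RPKM in A. suecica, with 2.89 to 4.34 RPKM in A. thaliana. Both of these genes were above the parental columns in F8 and in A. suecica. DJ1F had 19.8 RPKM in F8 and 96.6 RPKM in A. suecica, with 50.1 to 81.3 RPKM in A. thaliana. SERAT2;1 had 4.03 RPKM in F8 and 66.9 RPKM in A. suecica, with 20.7 to 25.5 RPKM in A. thaliana. CYP71B4 had 3.59 RPKM in F8 and 19.1 RPKM in A. suecica, with 21.3 to 22.5 RPKM in A. thaliana. SERAT2;1 was low in F8 and high in A. suecica, and DJ1F and CYP71B4 were below the parental columns in F8. The F8 and A. suecica values were doubled but, unlike the F1 differences, not centred on a median gene. Small gaps, such as those of LOX3, DJ1F and CYP71B4 in A. suecica, are therefore not read as differences. These libraries have no replicate and no test.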

How the data were processed

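Leaf mRNA was sequenced on Illumina instruments as reads of 60 to 83 bases, and the authors deposited RPKM values per transcript, split by species for the allotetraploids. TAIR 9 is named in the submitters' processing notes. How reads were assigned to a species was stated in no label used here. Read counts could not be recovered, since 8.08 to 33.6% of low parental values were whole reads within 2% using RefSeq lengths, so depth is unknown. Values were compared as log2(RPKM + 1) with limma 3.58.1 (variance trend, R 4.3.3) and tables handled with pandas 2.3.3. Names and sequences come from RefSeq TAIR10.1, which held 9750 of the compared genes. In data simulated for the F1 against parent comparison over 9792 genes, 17.9% of 2-fold, 67.2% of 4-fold and 87.9% of 8-fold changes were recovered. The text names up to 12 genes a direction that passed the test, by size of difference, with means of at least 20 RPKM in the higher group and 1 RPKM in the other, and from every list its 2 extremes at either end; any other gene was picked with its values in view. The members and lists were chosen with earlier results of these data known. Alternatives changed the pseudocount, filter, centring, transcript choice, replicate block and columns used; leaving out genes of the low band was chosen after seeing the data.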

Additional observations from a re-analysis of the deposited data

Results flagged for a closer look

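The A. thaliana and A. arenosa copies responded differently, by a test of the difference itself (limma, adjusted p below 0.05), in 12 genes. Each value is the log2 difference of the A. thaliana copies from their parent minus that of the A. arenosa copies from theirs. Genes with A. thaliana copies in the low band gave -7.81 for AT1G67860, -6.89 for CAT1, -4.82 for AT5G17000 and -3.44 for Hsp81.4, and these sizes rest on how the low values were set, so they are no measure of fold. BGAL4 gave -2.86, AT1G67870 -2.76, ZF2 -2.64, ADT6 -2.03 and AT5G14430 -1.96. The A. thaliana response was the higher one in MEE18 (1.93), AT1G27030 (2.94) and TCH3 (5.18). The value of TCH3 rests in part on a low-band value, since its A. arenosa copies were in the band in F1 replicate 2, and these copies were listed at 0 in F8.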

How the results depend on the processing

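Against 19 higher and 10 lower genes, the counts were 132 and 18 with no centring, 35 and 21 with quantile normalization, 25 and 17 with each column centred on its median, 6 and 7 over all transcripts, 21 and 19 with no filter on low values, 16 and 5 at a mean of at least 20 RPKM, and 15 and 5 with genes of the low band left out. Leaving out 1 column gave 0 to 192 higher and 2 to 142 lower genes. The 12 genes with different responses became 2 with the low band left out, and 2 to 19 when a replicate was left out of every group. Against 1 list member past the test there were 0 with a pseudocount of 5, 0 over all transcripts, 3 at a mean of at least 20 RPKM, 2 with no centring, 2 with each column centred, and 0 to 10 when a column was left out. The replicate block gave 0 higher and 6 lower genes, 4 different responses and 2 list members past the test. Both members were lower photosystem genes, and LOX3 did not pass. Same-numbered columns correlated at 0.51, -0.23 and 0.25 in their deviations, and F1 replicate 2 correlated best with A. thaliana replicate 3, so the numbers were not taken as pairs. Of 467 alternative values of the 29 genes past the test, 309 kept their call, 158 lost it and 0 changed direction; of 103 for the different responses, 43 lost the call. For 7 list medians, 13 of 119 values moved by more than the spread between columns. The causes were not tested. Depth is unknown, so what it limits cannot be given.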
